A study of Homo sapiens with 8 samples.

Results

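The Kruppel-like factors examined here are 10 genes, KLF2, KLF3, KLF4, KLF5, KLF6, KLF7, KLF9, KLF10, KLF11 and KLF13, out of 18850 genes named on the array. They were taken by their gene symbol in the platform annotation, which named 15 probes for 9 of them. KLF11 had 0 probes and was not analysed here. The series asked how lowering TRPM2-AS, the antisense transcript of TRPM2 (a gene for a calcium channel), changes gene expression in PC3, an established human prostate carcinoma line. The medium of both groups was DMEM supplemented with L-glutamine and foetal bovine serum. For 48 hours the cells carried a control siRNA with no specific target or a TRPM2-AS siRNA. Each group has 4 samples, hybridised to Illumina bead arrays in 1 colour. Of these, 4 control siRNA and 3 TRPM2-AS siRNA arrays could be used from the non-normalized table. The cells are a single tumour line. Nothing in the labels tells whether replicates were grown separately, so the p-values reflect spread among these samples alone, possibly technical.

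Kruppel-like factors are transcription factors that bind GC-rich and CACCC elements through 3 zinc fingers at the end of the protein. The family is usually divided by partners. KLF3, KLF8 and KLF12 recruit the CtBP corepressors. KLF2, KLF4, KLF5, KLF6 and KLF7 act largely as activators with histone acetyltransferases. KLF9, KLF10, KLF11 and KLF13 bind the SIN3A corepressor. In epithelia, KLF4 is linked to cell cycle exit and differentiation and KLF5 to proliferation. KLF6 has been studied as a growth suppressor in prostate carcinoma.

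Of the 9 members with probes, 5 were detected on 7 of 7 arrays and tested: KLF2, KLF4, KLF6, KLF10 and KLF13. With TRPM2-AS siRNA, KLF13, KLF6 and KLF4 rose 2.34-fold, 2.33-fold and 2.10-fold, and 0 members fell (limma, adjusted p under 0.05; 0 also at an unadjusted p under 0.05). Over all 9272 genes tested, 27.4% were called higher, 29.6% lower and 57.0% in either direction, so a single call is common in this comparison. KLF2 and KLF10 did not pass. KLF3, KLF5, KLF7 and KLF9 were at or near background.

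The promoters of the 3 members that rose, and of KLF2, which was tested and did not pass, are shown with their matches to elements that this family and the related SP factors bind. The GC box and the CACCC core also matched among the promoters of KLF5, KLF7 and KLF11, though not in every one. The KLF9 promoter held neither. These elements thus do not set the 4 apart from all other members. RefSeq held promoters for 8 of the 10 members, and none was found for KLF3 and KLF10. Each sequence is the 250 bases before the annotated start, 5′ to 3′ on the gene's strand, from RefSeq on GRCh38.p14. They lie at chr19:16324576-16324825 (plus strand, KLF2), chr9:107489770-107490019 (minus, KLF4), chr10:3785210-3785459 (minus, KLF6) and chr15:31326585-31326834 (plus, KLF13). Capitals mark the GC box GGGCGG, the core CACCC and the MEF2 site, on either strand.
KLF2: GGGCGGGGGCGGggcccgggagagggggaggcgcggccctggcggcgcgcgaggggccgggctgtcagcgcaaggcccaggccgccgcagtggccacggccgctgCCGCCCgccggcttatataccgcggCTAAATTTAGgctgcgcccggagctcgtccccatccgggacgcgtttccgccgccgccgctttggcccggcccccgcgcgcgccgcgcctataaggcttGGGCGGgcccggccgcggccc
KLF4: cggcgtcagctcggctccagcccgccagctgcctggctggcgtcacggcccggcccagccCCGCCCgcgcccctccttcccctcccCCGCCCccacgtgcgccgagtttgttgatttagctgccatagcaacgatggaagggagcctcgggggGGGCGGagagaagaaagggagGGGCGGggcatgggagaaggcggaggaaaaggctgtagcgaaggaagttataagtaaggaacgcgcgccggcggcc
KLF6: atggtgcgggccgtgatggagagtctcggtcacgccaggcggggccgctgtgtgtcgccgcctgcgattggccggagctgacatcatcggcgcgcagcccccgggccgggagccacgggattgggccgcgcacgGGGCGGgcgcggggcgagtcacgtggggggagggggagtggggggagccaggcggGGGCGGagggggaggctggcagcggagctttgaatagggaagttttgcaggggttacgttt
KLF13: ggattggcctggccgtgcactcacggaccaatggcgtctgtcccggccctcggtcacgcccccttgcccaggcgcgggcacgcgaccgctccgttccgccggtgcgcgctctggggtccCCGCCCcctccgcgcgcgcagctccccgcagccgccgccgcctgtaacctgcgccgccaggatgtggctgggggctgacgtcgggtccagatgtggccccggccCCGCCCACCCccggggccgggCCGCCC
The GC box occurred 4 times for KLF2, 4 for KLF4, 2 for KLF6 and 3 for KLF13. Of all 35116 promoters cut to the same length, 42.6% held at least 1. Only the KLF13 sequence held the CACCC core, 1 match that overlaps a GC box, against 54.7% of all promoters with at least 1. The KLF2 sequence held the 10-base MEF2 site 111 to 120 bases before the start, a match found in 0.515% of all promoters and in none of the other 3 sequences. MEF2 factors are known to drive KLF2 through such a site. The short site TGACG, bound by CREB and ATF factors, occurred 2 times for KLF4 and 1 time for KLF13, and 21.2% of all promoters held it. The AP-1 element TGANTCA and the CArG box of serum response factor had 0 matches in the 4 sequences, against 6.57% and 1.16% of all promoters. GC content was 80.0% for KLF2, 78.8% for KLF13, 72.4% for KLF6 and 69.2% for KLF4, against a median of 58.0%. These matches describe the letters of short windows and do not show binding.

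Each array detected between 13163 and 14318 probes. Across probes, which are no independent replicates, log2 signals correlated at 0.988 to 0.992 for arrays of the same siRNA and 0.965 to 0.971 for arrays of different siRNAs. TRPM2-AS had 0 named probes, so its own level was not analysed here. The epithelial genes EPCAM, KRT7, KRT8, KRT18 and KRT19 were detected on 7 of 7 arrays. CDH1 went the other way from their sum, detected on 0 of 4 control and 3 of 3 TRPM2-AS siRNA arrays. All 6 epithelial markers summed to 13700 to 16200 on control and 7670 to 8410 on TRPM2-AS siRNA arrays on the linear scale. A linear sum gives most weight to bright genes. Of 4 luminal prostate markers with probes, KLK2, KLK3 and FOLH1 were detected on 0 arrays and TMPRSS2 on 1 control and 2 TRPM2-AS siRNA arrays. The basal genes KRT5 and KRT14, 3 neuroendocrine and 4 endothelial markers were at 0 arrays. Of 5 leukocyte markers PTPRC, CD3E and LYZ were at 0 arrays. CD68 was detected on 4 of 4 control and 3 of 3 TRPM2-AS siRNA arrays, and CD14 on 4 of 4 and 1 of 3. The sum of the 5 leukocyte markers was 2290 to 2600 against 871 to 1030. Of 5 fibroblast markers COL1A1 alone was detected, and the sum was 199 to 223 against 276 to 286. The part of these levels in the KLF changes was not tested. In bulk RNA of this single line, fewer cells expressing a gene and less of its RNA per cell cannot be told apart.

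Of the activator group, KLF4, a factor of epithelial differentiation and growth arrest, was read by its detected probe. After background correction and quantile normalization, its log2 intensity was 8.48, 8.19, 8.58 and 8.20 on the control arrays and 9.58, 9.21 and 9.49 on the TRPM2-AS siRNA arrays. The groups did not overlap, and the lowest TRPM2-AS siRNA array lay above the highest control array. The means were 8.36 ± 0.20 (SD, n = 4) and 9.43 ± 0.19 (SD, n = 3), a log2 fold change of 1.07 ± 0.14 SE (95% interval 1.69-fold to 2.61-fold; limma adjusted p = 7.05e-05). A second KLF4 probe was detected on 0 of 7 arrays, at 4.56 to 5.26 on control and 4.48 to 4.74 on TRPM2-AS siRNA arrays. The rise therefore rests on 1 of the 2 KLF4 probes.

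KLF6, an immediate responder to injury and growth signals that can activate the p21 gene CDKN1A, had 1 probe. It read 10.69, 10.85, 10.69 and 10.89 on the control arrays and 11.87, 12.11 and 12.02 on the TRPM2-AS siRNA arrays. All 3 TRPM2-AS siRNA arrays were higher than every control array, and the spread within each group was small beside the gap. The means were 10.78 ± 0.11 (SD, n = 4) and 12.00 ± 0.12 (SD, n = 3), with a log2 fold change of 1.22 ± 0.12 SE (1.96-fold to 2.78-fold; limma adjusted p = 5.44e-06). In the deposited intensities before any correction, the same probe ran from 1757 to 2081 on control arrays and from 3871 to 4290 on TRPM2-AS siRNA arrays. The separation was thus already present on the linear scale.

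KLF2, known for its role in quiescent endothelium and T cells, was detected on every array without separating the groups. Its control arrays read 8.16, 8.76, 8.13 and 8.46, and its TRPM2-AS siRNA arrays 8.37, 8.91 and 8.97. The TRPM2-AS siRNA array at 8.37 fell within the control range. The log2 fold change was 0.37 ± 0.19 SE (95% interval 0.971-fold to 1.72-fold; limma adjusted p = 0.113), so a rise of up to 1.72-fold lies within its error. With all 8 samples in the authors' processed values the KLF2 log2 fold change was 0.30 and passed (limma adjusted p = 0.0444). Without the control array in column 2 or the TRPM2-AS siRNA array in column 1 it also passed, at 0.50 and 0.56 (limma adjusted p = 0.0386 and 0.0186). KLF5, which promotes proliferation of basal epithelial cells, was detected on 1 control array and 0 TRPM2-AS siRNA arrays. Its log2 values overlapped, from 4.78 to 6.17 and from 5.02 to 5.61. KLF7, known from neuronal growth, was detected on 0 of 7 arrays by each of its 3 probes.

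Of the SIN3-binding group, KLF13, a repressor also known as an activator of CCL5 in T cells, had 1 probe. It read 8.91, 9.29, 8.96 and 9.16 on the control arrays and 10.28, 10.37 and 10.27 on the TRPM2-AS siRNA arrays. The groups did not overlap, and the TRPM2-AS siRNA arrays lay close together. The means were 9.08 ± 0.17 (SD, n = 4) and 10.30 ± 0.06 (SD, n = 3), a log2 fold change of 1.22 ± 0.12 SE (1.94-fold to 2.82-fold; limma adjusted p = 8.48e-06). The deposited intensities before correction were 621.5 to 698.2 on control and 1325 to 1383 on TRPM2-AS siRNA arrays.

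KLF10, first described as an early gene of TGF-beta signalling, was measured by 3 probes. Its brightest probe read 8.80, 8.59, 8.58 and 8.28 on the control arrays and 8.86, 8.96 and 8.61 on the TRPM2-AS siRNA arrays. The TRPM2-AS siRNA array at 8.61 lay inside the control range. The log2 fold change was 0.25 ± 0.14 SE (0.954-fold to 1.48-fold; limma adjusted p = 0.163). A second detected probe gave 0.20 ± 0.11 SE (limma adjusted p = 0.155 over 13675 probes, of which 55.3% were called and 26.2% called higher), with control arrays from 8.01 to 8.12 and TRPM2-AS siRNA arrays from 8.11 to 8.37. Its groups overlapped by a single array of each. The third KLF10 probe was detected on 0 of 7 arrays. KLF9, a factor induced by glucocorticoid and thyroid hormone, was detected on 0 of 4 control and 1 of 3 TRPM2-AS siRNA arrays. Its values overlapped, at 5.47 to 5.97 and 5.63 to 6.13.

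KLF3, the CtBP-binding repressor among the members, was detected on 0 of 7 arrays by both of its probes. One probe nevertheless separated the groups, at 4.79, 4.59, 4.59 and 4.81 on control arrays and 5.79, 5.38 and 5.36 on TRPM2-AS siRNA arrays. Its detection p-values ran from 0.0132 to 0.0448 on the TRPM2-AS siRNA arrays, short of the 0.01 required, and from 0.379 to 0.839 on the control arrays. The other KLF3 probe overlapped, at 4.83 to 5.42 and 4.73 to 4.96. In the authors' processed values the first probe also separated the groups, at 6.70 to 6.88 in control and 7.08 to 7.30 in TRPM2-AS siRNA samples. The other probe overlapped there too, at 6.90 to 7.16 and 6.83 to 6.97. Neither group reached the detection threshold on any array, so no fold is given for KLF3.

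**Figure D1:**
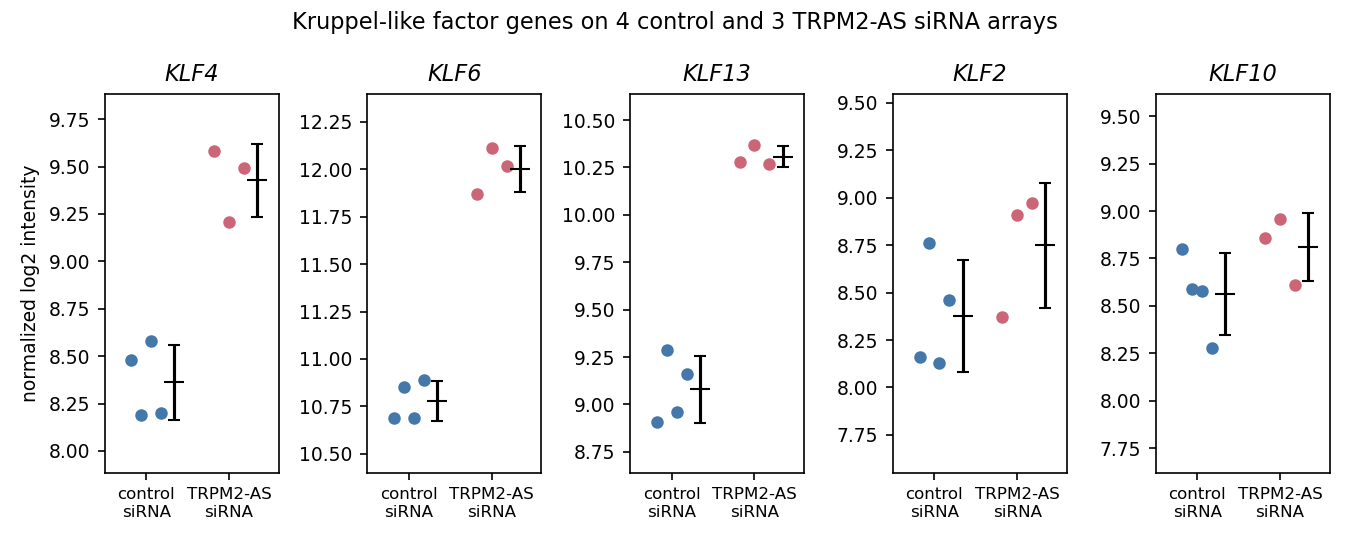
Normalized log2 intensity (vertical axes, each spanning the same range) of the 5 tested members on 4 control siRNA and 3 TRPM2-AS siRNA arrays; each point is an array and the bars are mean ± SD. The TRPM2-AS siRNA arrays lie above all control arrays for KLF4, KLF6 and KLF13, and the groups overlap for KLF2 and KLF10.

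KLF4, KLF6 and KLF13 had groups fully apart, as did 57.3% of all genes tested, 27.8% with TRPM2-AS siRNA higher. At least 2-fold higher calls made up 7.88% of genes, and KLF4, KLF6 and KLF13 were all among them. For KLF4 this depended on the processing, since it was under 2-fold in the authors' processed values (log2 fold change 0.81). Ranked by log2 fold change from the highest, KLF13 was gene 475, KLF6 gene 479 and KLF4 gene 634 of 9272, so many genes rose more. KLF2 stood at 2463 and KLF10 at 3085. The median log2 fold change of the 5 tested members was 1.07, the value of KLF4 itself, beside -0.01 over all genes tested. The members were chosen with earlier results of these data known, so this gap is no separate support. The genes with the most similar profiles were sought by the root mean square difference of control-centred log2 values over the 7 arrays. For KLF13 these were the circadian gene NOCT (0.07), KLF6 (0.08) and SPRY2, an inhibitor of growth factor signalling (0.08). For KLF4, the called member with the smallest change, they were the ubiquitin-conjugating enzyme UBE2H (0.08), the mitochondrial carrier SLC25A46 (0.08) and the AKT phosphatase PHLPP2 (0.09). This measure favours genes with a like fold change, so nearness says little beyond that. The log2 fold changes were 1.27, 1.22 and 1.23 for the 3 genes nearest to KLF13, which include KLF6. They were 1.07, 1.02 and 1.04 for the 3 nearest to KLF4.

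The authors' processed values add the TRPM2-AS siRNA sample of replicate 3, which is not among the 7 arrays above. On the log2 scale KLF4 read 8.88, 8.95, 8.65 and 8.66 in the control samples and 9.80, 9.48, 9.39 and 9.72 in the TRPM2-AS siRNA samples, replicates 1 to 4 in each. KLF6 read 10.80, 10.80, 10.96 and 10.99 against 11.94, 12.18, 12.16 and 12.09. KLF13 read 9.23, 9.26, 9.54 and 9.43 against 10.42, 10.50, 10.54 and 10.41. In all 3 genes the added replicate 3 (9.39, 12.16 and 10.54) lay above every control sample, and the groups did not overlap. The log2 fold changes were 0.81 for KLF4, 1.21 for KLF6 and 1.10 for KLF13 (limma adjusted p = 4.87e-06, 4.38e-09 and 1.65e-08), where 30.1% of genes were called higher and 61.6% in either direction. Of the 8 samples, 7 are the arrays above, so these values are not separate support. KLF10 ran from 8.72 to 9.13 in control and from 8.96 to 9.27 in TRPM2-AS siRNA samples and did not pass (limma adjusted p = 0.207).

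**Figure D2:**
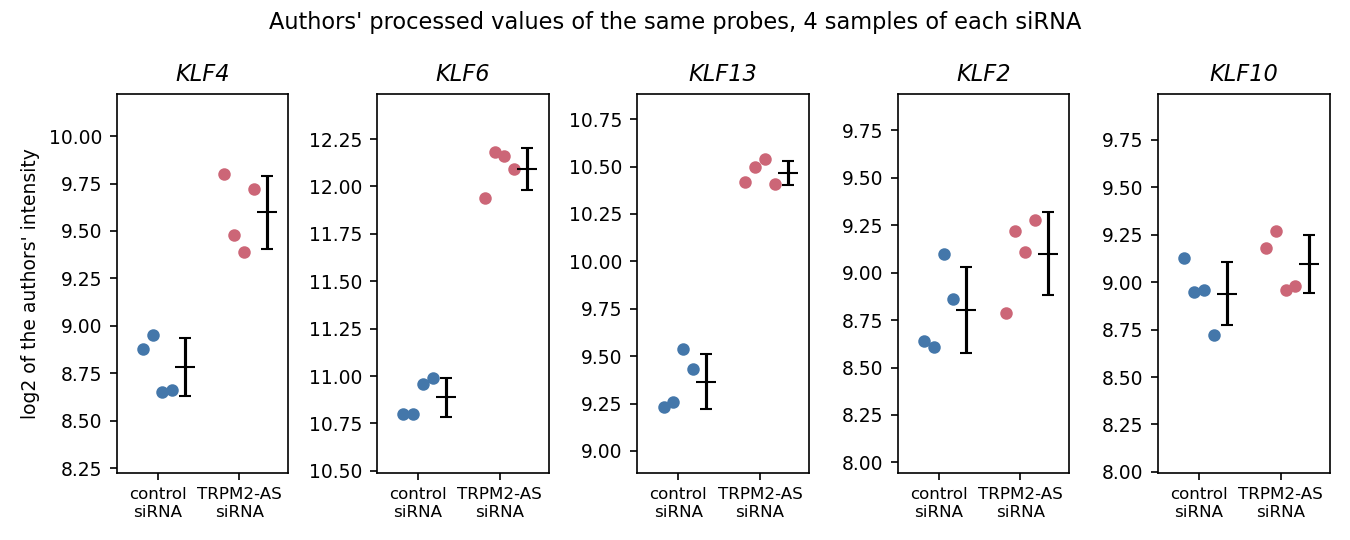
Log2 of the authors' processed intensity (vertical axes, each spanning the same range) for the same probes in 4 control siRNA and 4 TRPM2-AS siRNA samples; each point is a sample and the bars are mean ± SD. KLF4, KLF6 and KLF13 are fully apart, from 8.65 to 8.95 against 9.39 to 9.80 for KLF4, while KLF2 and KLF10 overlap.

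Close relatives of the members were taken from a list of the other KLF genes and the SP genes, whose zinc fingers are alike. Of 8 other KLF genes, 7 had probes and 2 were detected widely enough to test. KLF8 (log2 fold change 0.14, limma adjusted p = 0.351) and KLF12 (0.20, limma adjusted p = 0.201) did not pass. Both recruit CtBP like KLF3. KLF1, KLF14, KLF15, KLF16 and KLF17 were detected on 0 arrays. Of 9 SP genes, 4 were tested, of which 1 rose and 1 fell. SP1, the ubiquitous GC box activator, read 9.02, 9.14, 9.19 and 8.87 on the control arrays and 7.45, 8.25 and 8.30 on the TRPM2-AS siRNA arrays. It fell 2.08-fold (log2 fold change -1.05 ± 0.19 SE, limma adjusted p = 0.00073), while the 3 members above rose. In the authors' processed values the SP1 log2 fold change was -0.77, and without TRPM2-AS siRNA replicate 1 it was -0.63 there. SP3, which competes with SP1 for GC boxes, rose 1.52-fold (limma adjusted p = 0.00314). Its brightest probe gave a log2 fold change of 0.60. A second SP3 probe also gave 0.60 (limma adjusted p = 0.0371 over 13675 probes), but its groups overlapped. It was detected on 2 of 4 control and 3 of 3 TRPM2-AS siRNA arrays. The remaining SP3 probes were detected on 0 arrays.

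**Figure D3:**
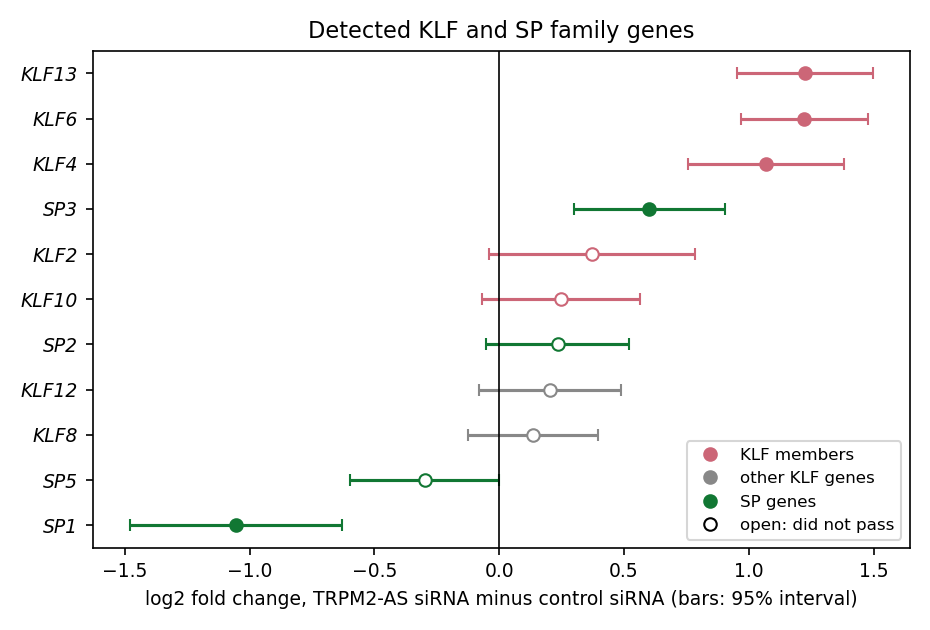
Log2 fold change (TRPM2-AS siRNA minus control siRNA, horizontal axis) with 95% interval for the 11 KLF and SP genes tested; filled points passed the limma test at an adjusted p under 0.05. KLF13, KLF6 and KLF4 lie at 1.07 to 1.22, and SP1 at -1.05.

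Of 14 listed cofactors through which these factors act, 11 were tested, of which 4 fell and 0 rose (36.4% lower, beside 29.6% of all genes; median -0.17). At an unadjusted limma p under 0.05 there were 2 higher, HDAC2 and SAP18, and under 15 of 27 alternatives 1 cofactor rose. The histone deacetylase HDAC1, a component of the SIN3 complex bound by KLF10 and KLF13, fell 3.31-fold (limma adjusted p = 2.69e-07). The acetyltransferase CREBBP fell 2.18-fold, HDAC3 2.00-fold and SIN3B 1.44-fold. SIN3A, the direct partner of KLF13, was at -0.07, and the corepressors of KLF3, CTBP1 and CTBP2, were at 0.15 and -0.22. None of these 3 passed (limma adjusted p = 0.588, 0.51 and 0.382). The CTBP1 log2 fold change rested on single arrays: it was 0.39 and passed without the TRPM2-AS siRNA array in column 1 (limma adjusted p = 0.0415), and was -0.03 without the one in column 3. In the authors' processed values without replicate 1 of that siRNA it was 0.29 and passed (limma adjusted p = 0.0158).

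Of 9 genes for ubiquitin ligases and other regulators of KLF protein turnover, 8 were tested, of which 4 fell and 3 rose (50% and 37.5%, beside 29.6% and 27.4% of all genes; median -0.34). The ligase WWP1, which targets KLF2 and KLF5 for degradation, fell 3.73-fold (limma adjusted p = 2.17e-07). FBXW7, another ligase subunit for KLF2 and KLF5, fell 2.11-fold. BTRC, a ligase subunit for KLF4, was detected on 4 of 4 control and 0 of 3 TRPM2-AS siRNA arrays. It passed the detection filter through the control arrays alone, and a gene detected with TRPM2-AS siRNA alone could not. No p-value is therefore given for BTRC, though it counts among the 4 that fell. Taking the dimmest detected probe of an array as the floor, BTRC was at least 2.10-fold lower. That size depends on the background correction: the fitted BTRC log2 fold change was -1.69, but -0.73 without correction and -0.80 in the authors' processed values, both smaller falls than the bound. FBXO32, also a ligase subunit reported for KLF4, rose 2.15-fold (limma adjusted p = 3.01e-05). Protein levels of the members were not measured.

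Of 15 genes for signals known to induce KLF genes, 10 were tested, of which 2 rose and 3 fell (20% and 30%, near the 27.4% and 29.6% of all genes; median 0.04). MEF2D, a MEF2 factor, rose 2.33-fold (limma adjusted p = 1.05e-05). MEF2C was detected on 4 of 4 control and 0 of 3 TRPM2-AS siRNA arrays. Like BTRC, it passed the filter through the control arrays alone, so no p-value is given, though it counts among the 3 that fell. By the same floor MEF2C was at least 1.91-fold lower. The fitted MEF2C log2 fold change was -1.59, but -0.70 without background correction and -0.76 in the authors' processed values, again smaller falls than the bound. The TGF-beta mediators SMAD4 and SMAD3 went apart, SMAD4 rising 1.47-fold and SMAD3 falling 1.44-fold. The kinase gene MAPK7, which encodes ERK5 upstream of KLF2 and KLF4, was at 0.17 and did not pass (limma adjusted p = 0.315).

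Genes described as bound or regulated by KLF factors in other cells numbered 26, of which 15 were tested, 7 rose and 7 fell (46.7% each, beside 27.4% and 29.6% of all genes; median 0.09). This balance depends on the detection filter, which kept out genes detected with TRPM2-AS siRNA alone. With detection required on at least 3 arrays, 10 rose and 7 fell. Under the 27 alternatives 5 to 10 rose and 6 to 7 fell. The calls of LGALS3, ENG and PDGFB were lost under 15, 9 and 8 of these, and the groups overlapped for LGALS3 and PDGFB. The list mixes activated and repressed targets. CDKN1A, the p21 gene activated by KLF4 and KLF6, rose 9.06-fold (limma adjusted p = 3.21e-08), and ATF3, a stress factor induced by KLF6, rose 5.13-fold. FGFBP1, a gene for a fibroblast growth factor binding protein activated by KLF5, fell 5.04-fold, and the survival gene BIRC5 fell 2.77-fold. S1PR1, a receptor gene activated by KLF2, was detected on 0 of 4 control and 3 of 3 TRPM2-AS siRNA arrays and was at least 2.06-fold higher. PDGFA was seen on the same arrays and was at least 1.43-fold higher. CDH1 was also seen there, with no fold to give. The S1PR1 and PDGFA bounds use the same floor as those of BTRC and MEF2C, which depended on the background correction. They were not checked without that correction, so they are no firm limits. Whether any of these changes depends on a KLF gene was not tested.

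**Figure D4:**
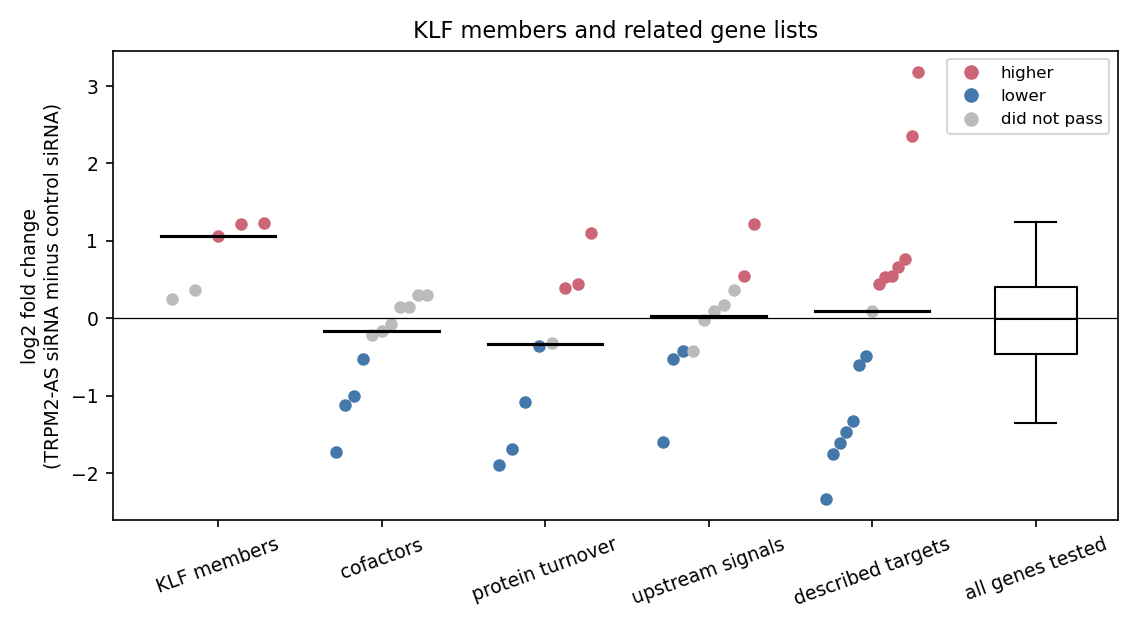
Log2 fold change (vertical axis) of each tested gene of the KLF members and 4 related lists; colour marks the limma call, black bars are list medians, and the box shows all 9272 genes tested (median, quartiles, and whiskers at the 5th and 95th percentiles). The median of the 5 tested members is 1.07. The lists of cofactors, turnover, signals and targets have medians of -0.17, -0.34, 0.04 and 0.09.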

How the data were processed

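Bead array signals were deposited in a raw and a processed form. The raw form gives an intensity per probe and, per the file headers, its detection p-value; the submitters' processing notes name BeadStudio, with version and background setting not given in the sources used here. The authors' processed intensity covers 8 samples, with columns that share 1 distribution, and limma is named in the same notes. Raw columns carry a group name and a number. The order of 48798 probes was identical to that of a sample of the named group for 7 columns (Spearman rho of 1); 1 column matched no sample and was not used. No slide or scan batch is named.

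With limma 3.58.1 (R 4.3.3), background was removed by normexp from detection p-values (offset 16), followed by quantile normalization and log2, which hides any shift shared by all genes. A probe was kept if its detection p was below 0.01 on 4 or more of the 7 arrays (13675 probes), and the brightest probe stood for its gene (9272 genes). That filter loses genes detected with TRPM2-AS siRNA alone. Of the probes, 28094 had 1 gene name, 13 several and 20691 none. The group difference was tested by lmFit with eBayes, two-sided, adjusted by Benjamini-Hochberg over all genes (threshold 0.05), and the fit was tested on simulated data. A gene above background in a single group has a lower bound as its fold, against the dimmest detected probe of each array or its own signal, whichever was higher. Alternatives covered correction, normalization, filter, probe choice, variance model, weights, the authors' values, a replicate block and each array or sample left out. The text names the 10 members, up to 4 called genes of each list by smallest p, list genes seen in 1 group alone and the nearest profiles; other list genes were chosen after their values were seen. The members and lists were chosen with earlier results of these data known. The number of arrays limits precision, with a median SE of 0.14 for log2 fold changes.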

Additional observations from a re-analysis of the deposited data

How the results depend on the processing

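The 27 alternatives changed the background correction, offset, normalization, detection filter, probe choice, variance model, array weights or table, or left out 1 array or sample. KLF4, KLF6 and KLF13 rose under all 27, with log2 fold changes of 0.74 to 1.17, 1.17 to 1.29 and 1.06 to 1.30. Members called numbered 3 to 4 (3 to 4 also when 1 array was left out), the fourth being KLF2 under 7 of the 27 and KLF3 without any filter on dim probes, and 0 members fell in any. KLF10 passed in 0 of the 27 (limma adjusted p = 0.083 to 0.525). Genes called numbered 4807 to 6011, against 5281. Without that filter KLF3 passed (limma adjusted p = 0.000822) while short of the detection threshold in both groups. With the authors' processed values and the replicate number as a block, 6011 genes and 4 members passed (KLF2 limma adjusted p = 0.0144). Deviations of same-numbered samples correlated at 0.392, -0.072, 0.093 and 0.229, and 4 of the 8 samples correlated best with their own number, so the numbers were not taken as pairs. No gap within a group of 4 samples passed Dixon's limit for a tested member. Across all genes the median log2 fold change lay between -0.035 and 0.002. Dim probes such as those of KLF3, KLF5, KLF7 and KLF9 limit what can be said of those 4 members.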
